A study of Saccharomyces cerevisiae with 12 samples.

Results

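The mitochondrial genome of budding yeast is a separate DNA molecule that lies outside the nucleus and is present in many copies per cell. The members described here are its 9 large genes, namely those of the 15S rRNA, COX1, ATP6, COB, OLI1, VAR1, the 21S rRNA, COX2 and COX3. They were chosen by position: each 1000-bp row of the deposited table on the mitochondrial chromosome that overlapped 1 of these genes was given to that gene, and the other rows were kept as rows between genes. This gave 40 gene rows and 46 rows between genes, 86 rows in all of the 12165 in the table, of which 12079 were nuclear. The rule used no measured value, but it was set with earlier results of these data known.

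The study sequenced total genomic DNA of a laboratory yeast with a point mutation in ECO1 and of its wild-type control while the cells passed from G1 into S phase. Eco1 is the acetyltransferase that makes the cohesin ring hold sister chromatids together. The groups were the eco1-W216G mutant, strain JG2087, at 0, 20 and 40 min after release from G1, and the wild type, w303a (wt), at the same 3 times. All cells, controls included, had been grown in the rich medium YPD and held in G1 by α-factor, a yeast mating pheromone, which was washed out with a protease at time 0. Each strain and time had 2 libraries, 12 in all, made with the Nextera XT kit, which cuts and tags DNA with a transposase. The labels do not say that replicates came from separate cultures, so p-values measure only the spread between these libraries, which may be technical.

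Of the genes described, 3 serve the mitochondrion's own translation: the 15S and 21S rRNAs form the cores of the small and large ribosomal subunits, and VAR1 encodes a protein of the small subunit. COX1, COX2 and COX3 encode the core subunits of cytochrome c oxidase, COB encodes cytochrome b of the preceding respiratory complex, and ATP6 and OLI1 encode parts of the membrane motor of ATP synthase. COX1, COB and the 21S rRNA gene hold introns, several of which carry reading frames of their own. The long stretches between genes are known for being very rich in A and T. Mitochondrial DNA is copied by its own polymerase, Mip1, and this is not tied to the S phase in which nuclear chromosomes are copied.

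On build sacCer3, with gene positions from RefSeq, the 15S rRNA gene lies at chrM:6546-8194 and the 21S rRNA gene at chrM:58009-62447. COX1 lies at chrM:13818-26701, ATP6 at chrM:28487-29266, COB at chrM:36540-43647, OLI1 at chrM:46723-46953, VAR1 at chrM:48901-50097, COX2 at chrM:73758-74513 and COX3 at chrM:79213-80022. COX1 spans 14 rows, COB 8, the 21S rRNA gene 5, the 15S rRNA gene and VAR1 3 each, ATP6, COX2 and COX3 2 each, and OLI1 1. A row can reach beyond its gene: the single row of OLI1 holds 231 bases of the gene, and the second row of COX3 only 22. All 9 genes carried reads in all 12 libraries, and none of the 86 rows was left out for a low value.

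Read numbers were recovered from the deposited ratios, and each library held 5293237 to 10362815 reads. Mitochondrial rows held 117047 to 472942 reads per library, 2.11% to 4.35% of the reads summed over all rows of the library. Levels are given as relative depth, which is the reads per 1000 bp of a row divided by the reads of the library's median nuclear row (467 to 897 reads), so that 1 stands for the usual depth of nuclear DNA. A higher relative depth can come, among other sources, from more mitochondrial DNA or from less nuclear DNA per cell. The mitochondrial and the nuclear source cannot be told apart in bulk DNA, in particular while the nucleus is being copied. The ratio of eco1 over wt at 0 min also differed along the molecule, from 1.09 for OLI1 to 2.41 between COX1 and ATP6. The part of uneven recovery of rows was not tested, so the levels are not copy numbers. Both 40-min groups stood apart. Over the whole mitochondrial genome the eco1 libraries at 40 min had relative depths of 6.14 and 2.92, the highest and the lowest of the 12, and the wt libraries at 40 min had 3.37 and 4.59. The replicates of the other 4 groups were close, with 4.58 and 4.96 in eco1 at 0 min, 4.41 and 4.66 in eco1 at 20 min, 3.21 and 3.11 in wt at 0 min, and 3.84 and 3.61 in wt at 20 min. Results that rest on the 40-min libraries are therefore given with and without them.

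The genes for the translation apparatus covered most of the range of depth. The gene of the 21S rRNA had relative depths of 10.6 and 10.4 at 0 min, 10.9 and 10.9 at 20 min and 12.8 and 7.11 at 40 min in eco1, against 8.22 and 8.19, 8.96 and 9.51, and 7.53 and 9.7 in wt. The gene of the 15S rRNA had 5.51 and 6.03, 4.51 and 4.91, and 6.89 and 3.13 in eco1 at the same times, against 3.57 and 3.78, 4.52 and 4.55, and 4.12 and 5.79 in wt. For both rRNA genes the eco1 libraries at 0 min lay above the wt libraries, and at 20 min this held for the 21S rRNA gene, while the 15S rRNA gene overlapped between the strains. VAR1 had 1.78 and 2.19, 1.31 and 1.5, and 2.31 and 0.901 in eco1, against 1.07 and 1.02, 1.45 and 1.17, and 1.4 and 2.18 in wt. VAR1 had the lowest level of the 9 genes in every library, and was near the nuclear depth in wt at 0 min.

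The cytochrome oxidase genes were among the deepest. COX3 had 11.3 and 10.7, 13.3 and 13.6, and 15.3 and 8.89 in eco1 at 0, 20 and 40 min, against 9.15 and 8.45, 9.48 and 8.79, and 8.42 and 9.92 in wt. COX1 had 9.59 and 9.79, 9.95 and 10.5, and 12.9 and 6.73 in eco1, against 6.86 and 6.55, 8.17 and 7.49, and 6.8 and 8.47 in wt. COX2 had 8.24 and 8.67, 8.41 and 8.7, and 10.7 and 5.43 in eco1, against 6.63 and 6.49, 6.92 and 7.7, and 5.99 and 8.01 in wt. In all 3 genes the eco1 libraries at 0 and 20 min lay above every wt library of the same time, and the 40-min libraries of the strains overlapped.

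COB, the cytochrome b gene, had 5.3 and 5.66, 5.06 and 5.53, and 7.6 and 3.14 in eco1, against 3.72 and 3.56, 4.77 and 4.41, and 4.29 and 6.1 in wt. Of the ATP synthase genes, ATP6 had 3.79 and 4.18, 3.41 and 3.65, and 5.34 and 2.1 in eco1, against 2.27 and 2.15, 3.01 and 2.61, and 2.86 and 3.99 in wt. OLI1 had 8.7 and 8.28, 8.93 and 8.15, and 8.62 and 5.98 in eco1, against 7.99 and 7.64, 8.03 and 8.21, and 7.09 and 8 in wt. COB and ATP6 were higher in both eco1 libraries than in both wt libraries at 0 and at 20 min, whereas OLI1 was higher in both at 0 min and overlapped at 20 min. The rows between genes were much shallower, with 1.9 and 2.43, 1.49 and 1.64, and 2.69 and 0.98 in eco1, against 1.12 and 1.08, 1.48 and 1.29, and 1.4 and 2.23 in wt.

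**Figure D1:**
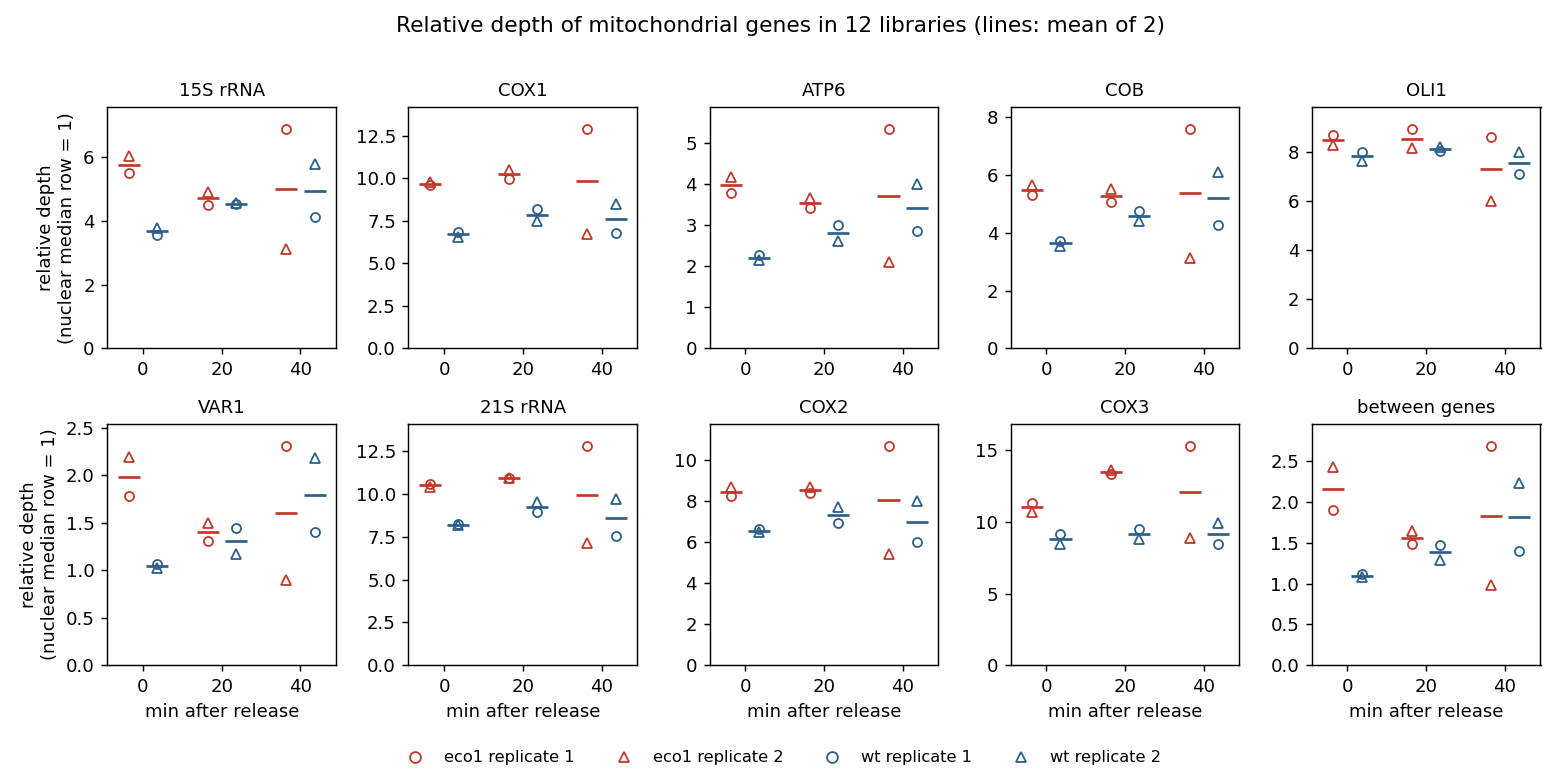
Relative depth (vertical axis, reads per 1000 bp over the library's median nuclear row) of the 9 genes and of the rows between genes at 0, 20 and 40 min after release, with 1 point per library, circles for replicate 1, triangles for replicate 2, and a line at the mean of 2. The eco1 points at 0 min lie above the wt points in every panel, and the eco1 points at 40 min are the most widely separated, as in COX1 at 12.9 and 6.73.

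By mean level in eco1 at 0 min, the order was COX3 at 11 ± 0.428, the 21S rRNA gene at 10.5 ± 0.114, COX1 at 9.69 ± 0.144, OLI1 at 8.49 ± 0.297, COX2 at 8.45 ± 0.305, the 15S rRNA gene at 5.77 ± 0.373, COB at 5.48 ± 0.256, ATP6 at 3.98 ± 0.272 and VAR1 at 1.98 ± 0.293 (SD, n = 2 each). In wt at 0 min the order was COX3 at 8.8 ± 0.492, the 21S rRNA gene at 8.2 ± 0.0217, OLI1 at 7.81 ± 0.244, COX1 at 6.7 ± 0.222, COX2 at 6.56 ± 0.0999, the 15S rRNA gene at 3.68 ± 0.151, COB at 3.64 ± 0.111, ATP6 at 2.21 ± 0.08 and VAR1 at 1.04 ± 0.0325 (SD, n = 2 each). Neighbours whose libraries overlapped, and which therefore have no settled order, were OLI1 and COX2 and also the 15S rRNA gene and COB in eco1, and COX1 and COX2 and again the 15S rRNA gene and COB in wt. The order is that of means over rows, which reach beyond the genes. In eco1 at 0 min the rows of COX3 averaged 17.8 and 4.17, the lower one holding only 22 of its bases. Levels weighted by the bases in each gene were not computed, so the order of the genes proper can differ.

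The first comparison asked whether arrested cells of both strains held the same level of the mitochondrial genes before S phase. At 0 min every gene was higher in both eco1 libraries than in both wt libraries. The ratio of mean relative depths, eco1 over wt, was 1.9 for VAR1, 1.8 for ATP6, 1.57 for the 15S rRNA gene, 1.5 for COB, 1.45 for COX1, 1.29 for COX2, 1.28 for the 21S rRNA gene, 1.25 for COX3 and 1.09 for OLI1. It was 1.51 over all mitochondrial rows, 1.4 over gene rows and 1.97 over rows between genes. The 4 genes of lowest depth had the 4 largest ratios, and the rows between genes a larger ratio than the gene rows.

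In the limma fit over all 12 libraries and 1232 features (1213 nuclear 10-kb windows, the 9 genes and 10 stretches between them), none of these differences passed an adjusted p of 0.05. Of the 9 genes 0 were called, where the percent called over all features was 0%. An unadjusted p under 0.05 was found for 2 genes, beside 92 of all 1232 features. The 2 genes were ATP6 at a log2 difference of 0.84 ± 0.351 (SE, adjusted p = 0.653) and VAR1 at 1.016 ± 0.435 (SE, adjusted p = 0.653). The spread in that fit is shared with the 40-min libraries. Fitted without the 40-min libraries, a choice made after seeing the data, limma called 8 of 9 genes higher in eco1, all but OLI1, and 9 of 10 stretches between genes, against 1.95% of all features. The 21S rRNA gene then had a log2 difference of 0.398 ± 0.0234 (adjusted p = 0.00145), ATP6 0.84 ± 0.0702 (adjusted p = 0.0068), VAR1 1.016 ± 0.141 (adjusted p = 0.0217) and OLI1 0.12 ± 0.0492 (adjusted p = 0.387). With the 0-min libraries alone, also a choice made after seeing the data, 5 of 9 genes were called, against 0.406% of all features. These 5 genes (21S rRNA, COX1, ATP6, COB and COX2) were all the features called. None of the 9 genes overlapped between the strains at 0 min, and 52% of nuclear windows did not overlap either.

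The next comparisons set the genes at 20 and 40 min after release against 0 min, relative to nuclear DNA. The deposited values are log2 ratios of the later library to the 0-min library of the same strain and replicate, and each column was centred here on its median over nuclear rows, so that 0 stands for the typical nuclear row. Nuclear chromosomes averaged -0.091 to 0.194 in all columns, except chromosome I, which stood at 0.523 to 0.558 in the 4 eco1 columns and 0.035 to 0.052 in the 4 wt columns. In the 4 eco1 columns chromosome IX stood at 0.186 to 0.194, III at 0.108 to 0.135 and V at 0.097 to 0.12. In the 4 wt columns IX, III and V stood at 0.007 to 0.052. In eco1, chromosomes I, IX, III and V thus stood higher in the later libraries than in the 0-min libraries, relative to the nuclear median. The cause of this difference was not tested. At 20 min the strains lay on different sides of 0 for most genes. In eco1 the centred ratios were -0.43 and -0.601 for VAR1, -0.347 and -0.393 for the 15S rRNA gene and -0.173 and -0.204 for ATP6. They lay near 0 for COB (-0.057 and -0.061), COX2 (-0.048 and -0.059), COX1 (-0.041 and -0.007), OLI1 (0.036 and -0.027) and the 21S rRNA gene (0.018 and 0.028), and above it for COX3 (0.165 and 0.181). The eco1 columns were below 0 in all 46 rows between genes, with means of -0.378 and -0.626, and above 0 in 17 and 16 of the 40 gene rows.

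In wt at 20 min all 9 genes were above 0 in both columns. ATP6 stood at 0.412 and 0.326, the 15S rRNA gene at 0.377 and 0.319, COB at 0.351 and 0.238, VAR1 at 0.377 and 0.203, and COX1 at 0.268 and 0.219. COX2 had 0.129 and 0.254, the 21S rRNA gene 0.136 and 0.193, COX3 0.068 and 0.039, and OLI1 0.011 and 0.095. The rows between genes averaged 0.386 and 0.237, and 46 and 45 of 46 were above 0, as were 39 and 38 of the 40 gene rows. The gene rows averaged 0.268 and 0.221 in wt, against -0.083 and -0.09 in eco1.

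With all 8 ratio columns in 1 limma fit, 0 of 9 genes were called in eco1 at 20 min against its 0 min, where 11.6% of all features were called, and 0 of 9 in wt, where 5.36% were; none of the 9 had an unadjusted p under 0.05 in either strain. Without the 40-min columns, an alternative chosen after seeing the data, limma called 4 genes in eco1 against 23.9% of all features. Of these, VAR1 (-0.515 ± 0.0519, adjusted p = 0.0011), the 15S rRNA gene (-0.37 ± 0.0253, adjusted p = 0.000156) and ATP6 (-0.188 ± 0.0273, adjusted p = 0.0045) were lower than at 0 min, and COX3 (0.173 ± 0.0218, adjusted p = 0.0028) was higher. In wt it called 7 genes, all higher than at 0 min, against 11% of all features. The 2 not called in wt were OLI1 (0.053 ± 0.0292, adjusted p = 0.316) and COX3 (0.053 ± 0.0218, adjusted p = 0.192). The column of each strain and replicate shares its 0-min library with the 40-min column of that replicate, and a deviation of that library would enter both.

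**Figure D2:**
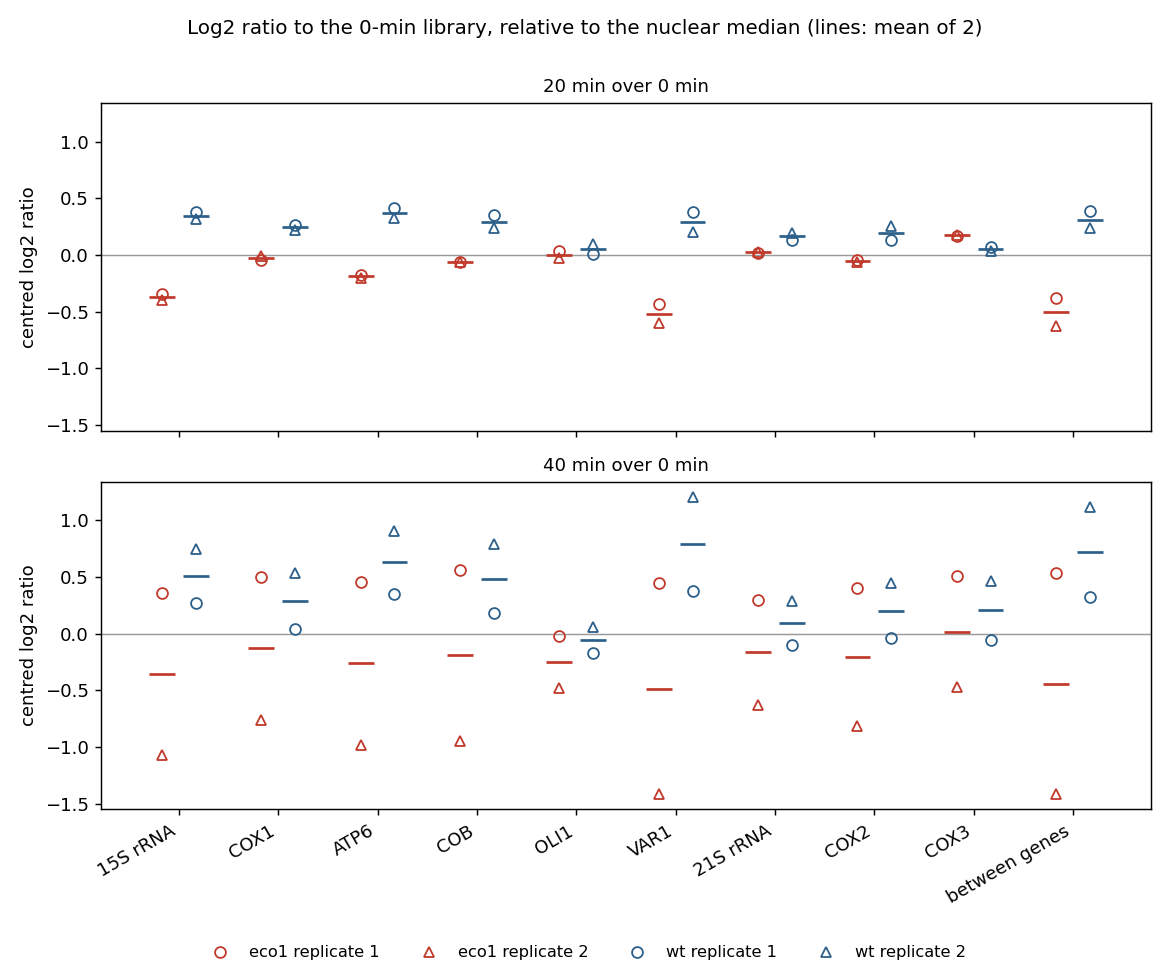
Centred log2 ratio to the 0-min library (vertical axis, 0 is the nuclear median) for each gene and for the rows between genes, at 20 min in the upper panel and at 40 min in the lower, with eco1 left of wt, 1 point per column and a line at the mean of 2. At 20 min replicates lie together, and the strains lie apart for 8 of 9 genes, all but OLI1, as for VAR1 at -0.43 and -0.601 in eco1 and 0.377 and 0.203 in wt, whereas at 40 min the 2 eco1 columns lie on opposite sides of 0 for every gene but OLI1.

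Set directly against each other at 20 min, eco1 minus wt was -0.805 for VAR1, -0.718 for the 15S rRNA gene, -0.557 for ATP6, -0.354 for COB, -0.267 for COX1, -0.245 for COX2, -0.141 for the 21S rRNA gene, -0.048 for OLI1 and 0.12 for COX3. The strains did not overlap for 8 of 9 genes, all but OLI1, nor for any of the 10 stretches between genes; the same was true of 61.8% of nuclear windows. With the spread shared over all 4 groups limma called 0 of 9 genes and 5.19% of all features, with 0 of the 9 at an unadjusted p under 0.05 and adjusted p-values of 0.353 to 0.852. With the 20-min columns alone it called 8 of 9 genes and 16% of all features. VAR1 (SE 0.0734, adjusted p = 0.000886), the 15S rRNA gene (SE 0.0358, adjusted p = 9.06e-05), ATP6 (SE 0.0387, adjusted p = 0.000275), COB (SE 0.0429, adjusted p = 0.00333), COX1 (SE 0.0337, adjusted p = 0.00364), COX2 (SE 0.0456, adjusted p = 0.0175) and the 21S rRNA gene (SE 0.0335, adjusted p = 0.0343) were then lower in eco1, and COX3 (SE 0.0308, adjusted p = 0.0442) was higher. Leaving out either eco1 40-min column left the 15S rRNA gene as the single gene called, at an adjusted p of 0.027, against 12.5% of all features. The median difference was -0.267 over the 9 genes, -0.825 over the 10 stretches and -0.016 over all features.

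These ratios start from different levels, with eco1 above wt at 0 min. Except for COX3, the levels of the strains at 20 min lay closer than at 0 min, at ratios of eco1 over wt of 1.22 over all mitochondrial rows, 1.24 over gene rows and 1.13 over rows between genes. By gene, the ratio at 20 min was 1.47 for COX3, 1.31 for COX1, 1.25 for ATP6, 1.18 for the 21S rRNA gene, 1.17 for COX2, 1.15 for COB, 1.07 for VAR1, 1.05 for OLI1 and 1.04 for the 15S rRNA gene. Limma called 0 of 9 of these level differences with all 12 libraries, where 15.2% of all features were called. An unadjusted p under 0.05 was found for 1 gene, COX3 (log2 difference 0.605 ± 0.256, adjusted p = 0.146), beside 393 of all 1232 features. With the 20-min libraries alone, a choice made after seeing the data, 4 of 9 genes were called higher in eco1, against 10.2% of all features. Leaving out either eco1 40-min library brought COX3 to an adjusted p of 0.0108, against 21.3% of all features called. Without the 40-min libraries 6 of 9 genes were called higher in eco1, against 22.6% of all features: COX3, COX1, ATP6, the 21S rRNA gene, COX2 and COB. The strains did not overlap for 6 of 9 genes at 20 min, against 62.4% of nuclear windows.

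**Figure D3:**
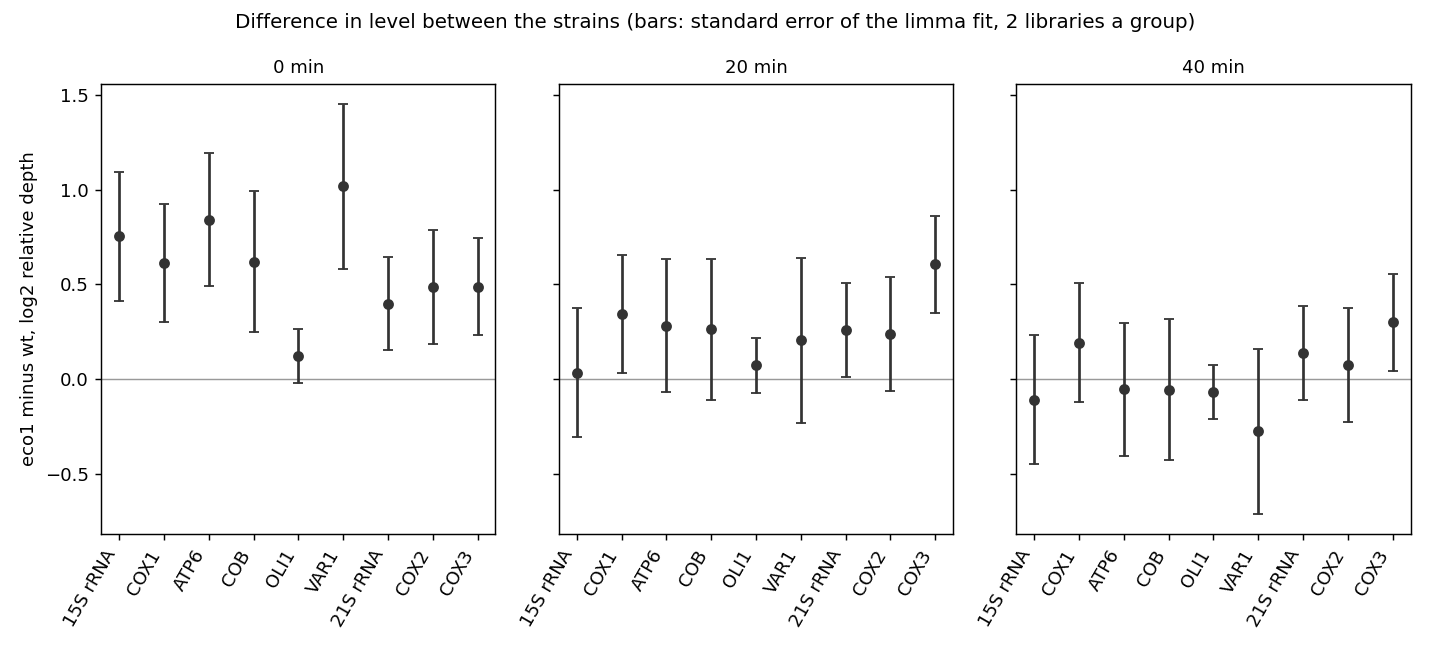
Difference in log2 relative depth, eco1 minus wt (vertical axis), for each gene at 0, 20 and 40 min, with bars of 1 standard error from the limma fit over 12 libraries, 2 a group. All 9 genes are above 0 at 0 min, up to 1.016 for VAR1, whereas at 40 min the values lie on both sides of 0.

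At 40 min the replicates did not give a common direction in eco1. Its replicate 1 had centred ratios above 0 for 8 of the 9 genes, with 0.564 for COB, 0.506 for COX3, 0.502 for COX1, 0.458 for ATP6, 0.445 for VAR1, 0.401 for COX2, 0.359 for the 15S rRNA gene and 0.297 for the 21S rRNA gene, and OLI1 at -0.018. Its replicate 2 was below 0 for all 9, with -1.418 for VAR1, -1.066 for the 15S rRNA gene, -0.983 for ATP6, -0.943 for COB, -0.818 for COX2, -0.764 for COX1, -0.629 for the 21S rRNA gene, -0.477 for OLI1 and -0.469 for COX3. Replicate 1 was above 0 in 85 of 86 mitochondrial rows and replicate 2 in 0 of 86. The SD between the 2 columns was 0.325 to 1.32 over the 9 genes, whereas its median over nuclear windows was 0.0432, so that the eco1 libraries disagreed on mitochondrial DNA far more than on nuclear DNA.

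In wt at 40 min the columns also differed in size. VAR1 had 0.379 and 1.208, ATP6 0.353 and 0.905, COB 0.179 and 0.791, the 15S rRNA gene 0.271 and 0.743, and COX1 0.045 and 0.535. The 21S rRNA gene (-0.096 and 0.291), COX2 (-0.041 and 0.443), COX3 (-0.055 and 0.465) and OLI1 (-0.172 and 0.059) were below 0 in replicate 1 and above it in replicate 2. The SD between the wt columns was 0.163 to 0.586 over the genes, against a median of 0.0273 over nuclear windows. The eco1 libraries at 40 min held 10362815 and 5293237 reads in total and the wt libraries 7731918 and 5876532, so that the higher mitochondrial depth was in the deeper library in eco1 and in the shallower one in wt. The part of library depth in the result was not tested.

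Limma called 0 of 9 genes in each comparison at 40 min. In eco1 against its 0 min 8.6% of all features were called. There 1 gene, OLI1, had an unadjusted p under 0.05, beside 283 of all 1232 features. In wt against its 0 min 0% were called, with 0 genes and 268 features at an unadjusted p under 0.05. In eco1 against wt 2.44% were called, with 0 genes and 233 features at an unadjusted p under 0.05. With the 40-min columns alone limma called 0 of 9 between the strains (1.62% called, 0 genes at an unadjusted p under 0.05). The strains overlapped for all 9 genes, where 48.7% of nuclear windows did not overlap. The outcome depends on which eco1 replicate is kept. Without eco1 replicate 1, eco1 minus wt stood at -2.212 for VAR1, -1.573 for the 15S rRNA gene and -0.674 for COX3. Without eco1 replicate 2, it stood at -0.348 for VAR1, -0.148 for the 15S rRNA gene and 0.301 for COX3. Against its 0 min, eco1 then has only the values of the replicate kept, given above. Each of these fits rests on a single eco1 column at 40 min. In levels at 40 min, where 0 of 9 genes and 10.6% of all features were called (0 genes at an unadjusted p under 0.05; with the 40-min libraries alone 0 genes at either threshold and 1.62% of features), leaving out eco1 replicate 1 gave 5 genes lower in eco1, against 20.8% of all features, and leaving out eco1 replicate 2 gave 3 genes higher (COX1, the 21S rRNA gene and COX3), against 7.63%. The strains overlapped for all 9 genes in levels, against 47.2% of nuclear windows that did not.

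The change between 20 and 40 min was called for 0 of 9 genes in eco1, 0 in wt and 0 in the difference of the strains' changes, where 0% of all features were called in each and no gene had an unadjusted p under 0.05 by limma.

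The genes were also compared with the rest of the mitochondrial genome. Within a library the highest row was 20.4 to 71 times as deep as the lowest, and gene rows were 3.23 to 5.25 times as deep as the rows between genes. The deepest row in every library was the same, chrM:16001-17000 inside COX1, at 26.7 and 25.2 in eco1 and 19.7 and 18.6 in wt at 0 min. The COX1 row chrM:14001-15000 and the row that holds nearly all of COX3 (chrM:79001-80000) were also among the 4 deepest in all libraries but 1, wt replicate 2 at 40 min, where that COX1 row was not. The lowest row was chrM:30001-31000 between ATP6 and COB, or the row chrM:27001-28000 between COX1 and ATP6, in every library.

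The mean over the 40 gene rows minus the mean over the rows between genes was 0.294 and 0.536 in eco1 at 20 min and -0.118 and -0.016 in wt at 20 min, on the centred log2 ratio scale. It was -0.079 and 0.567 in eco1 at 40 min and -0.228 and -0.492 in wt at 40 min. At 20 min gene rows therefore stood above the rows between them in both eco1 columns and slightly below in both wt columns. Measured against the rows between genes in this way, eco1 minus wt at 20 min was 0.933 ± 0.273 for COX3 (SE; adjusted p = 0.092), 0.765 ± 0.419 for OLI1, 0.672 ± 0.298 for the 21S rRNA gene, 0.569 ± 0.226 for COX2, 0.546 ± 0.209 for COX1 and 0.459 ± 0.141 for COB (adjusted p = 0.105). It was 0.256 ± 0.158 for ATP6, 0.095 ± 0.17 for the 15S rRNA gene and 0.008 ± 0.0422 for VAR1, the values nearest to 0. Limma called 0 of 9 at 20 min, where 6.41% of all features were called, and 0 of 9 at 40 min, where 3.08% were called. An unadjusted p under 0.05 was found for 4 genes at 20 min, beside 292 of all 1232 features. At 40 min it was found for 6 genes, beside 242 of all 1232 features. Of these genes VAR1 was lower in eco1 (-0.12 ± 0.0422, adjusted p = 0.166 by limma), and COX1, COB, the 21S rRNA gene, COX2 and COX3 were higher. With the 20-min columns alone 6 of 9 were called, all higher in eco1, against 15% of all features. Leaving out an eco1 40-min column changed the calls at 20 min, whichever was left out. At 40 min only leaving out eco1 replicate 1 changed them, and a single eco1 column then remained.

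The change of a row varied with its depth. To keep the measures apart, the depth of each row was taken from the 0-min libraries of the other strain. Over the 86 rows, which share a library, its depth and the base composition of the molecule, Pearson's r of centred ratio and relative depth was 0.733 and 0.891 in eco1 at 20 min and -0.526 and 0.891 in eco1 at 40 min, as a description. In wt it was -0.239 and -0.021 at 20 min and -0.514 and -0.795 at 40 min. Over the 40 gene rows alone r was 0.668 and 0.8 in eco1 at 20 min, -0.516 and 0.842 in eco1 at 40 min, -0.198 and -0.051 in wt at 20 min and -0.464 and -0.703 in wt at 40 min. Over the 46 rows between genes it was 0.262 and 0.673, -0.632 and 0.751 in eco1 and 0.398 and 0.154, 0.125 and -0.593 in wt at the same times. The gene rows had the sign of all rows in every column, and the rows between genes had the opposite sign in both wt columns at 20 min and in wt replicate 1 at 40 min.

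In eco1 replicate 2 at 40 min the 29 rows under a depth of 1 averaged -1.546, the 20 rows of 1 to 2 averaged -1.288, the 22 rows of 2 to 5 averaged -0.945 and the 15 rows of 5 and over averaged -0.501. In eco1 at 20 min the 15 deepest rows averaged 0.043 and 0.104, and the 29 shallowest -0.404 and -0.698. In wt replicate 2 at 40 min the order was the opposite, with 1.198 over 25 rows of 1 to 2, 0.943 over 33 rows of 2 to 5 and 0.459 over 26 rows of 5 and over. Nuclear rows, whose classes covered only depths of 0.3 to 1.5, moved with depth in the same sense in these columns. In eco1 replicate 2 at 40 min the median was -0.233 over 354 nuclear rows with a depth of 0.3 to 0.6 and 0.114 over 3500 rows of 1.1 to 1.5, and in wt replicate 2 at 40 min it was 0.193 over 256 rows and -0.078 over 3015 rows of the same classes. In eco1 at 20 min the nuclear medians were -0.148 and -0.118 in the shallow class and 0.075 and 0.068 in the deep class. In wt replicate 2 at 20 min the mitochondrial classes were level, from 0.226 to 0.235, while the nuclear medians were 0.081 and -0.052 in the shallow and the deep class. The part of row depth in the differences between strains was not tested.

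**Figure D4:**
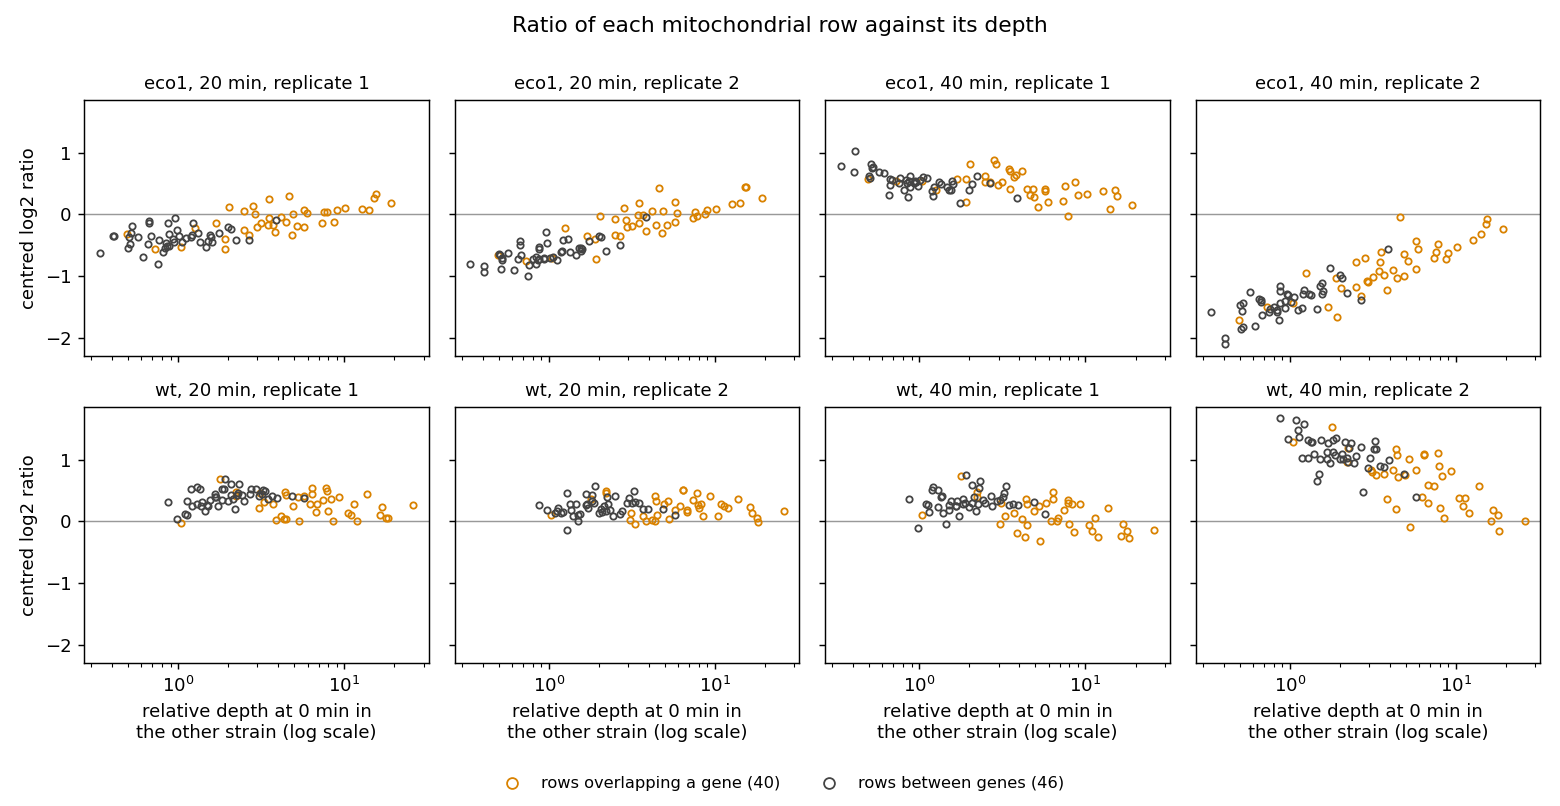
Centred log2 ratio of each of the 86 mitochondrial rows (vertical axis) against the row's relative depth at 0 min in the other strain (horizontal axis, log scale), with 1 panel per column, eco1 above wt, gene rows in orange and rows between genes in grey. The slope is upward in both eco1 panels at 20 min and in eco1 replicate 2 at 40 min, and downward in the other 3 panels at 40 min.

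Rows of 1 gene also differed from each other, and in COX1 not always in order of depth. The COX1 row chrM:18001-19000, with relative depths of 8.84 and 8.48 in wt at 0 min, had centred ratios of -0.131 and 0.005 in eco1 at 20 min. The shallower row chrM:13001-14000, at 4.71 and 4.53 in wt at 0 min, had higher ratios. In COX1, the rows chrM:13001-14000 and chrM:14001-15000 had centred ratios of 0.295 and 0.432, and 0.334 and 0.451, in eco1 at 20 min, and 0.001 and 0.035, and 0.053 and -0.016, in wt at 20 min. The COX1 row chrM:24001-25000, with relative depths of 3.71 and 5.02 in eco1 and 1.97 and 1.87 in wt at 0 min, had centred ratios of -0.556 and -0.728 in eco1 and 0.483 and 0.407 in wt at 20 min. COX1 thus held both the highest row of the eco1 mitochondrial genome and rows as low as those between genes, and its mean near 0 in eco1 is an average over them. In COX3 the row with nearly the whole gene had 0.269 and 0.441 in eco1 and 0.049 and 0.05 in wt at 20 min, and the row with its last 22 bases had 0.061 and -0.078 in eco1 and 0.087 and 0.028 in wt. In VAR1 all 3 rows were below 0 in both eco1 columns at 20 min, from -0.326 to -0.752. In the 21S rRNA gene 4 of 5 rows were above 0 in both eco1 columns, the exception being chrM:58001-59000 at -0.122 and -0.18.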

How the data were processed

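Genomic DNA of 12 libraries was sequenced, and per the submitters' processing notes CASAVA 1.8.2, Bowtie and the build sacCer3 were used; their roles and parameters are not given in the sources used here. The authors deposited 1 table of log2 ratios per 1000-bp row, with 8 ratio columns in log2 units and 8 smoothed columns, a score that was not used. From the values, a ratio is log2 of 2 terms' quotient, each term being a library's RPM plus 1, with the later time on top and the same strain's and replicate's 0-min library below. Whole reads were recovered by solving both ratios of a replicate for integers (tolerance 1e-05, or 0.0001 for rows with no solution), and in simulated data 2975 of 2975 rows were recovered. All 86 mitochondrial rows had exactly 1 solution in each strain and replicate. Up to 18 rows per replicate, none mitochondrial, had more than 1 and took that with the fewest reads. Reads over rows came to 1.05 times the library size that the ratios give. Rows with a ratio of exactly 0, 449 in all, were left out, and 11630 nuclear rows were kept.

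Each column was centred on its nuclear median. A gene's value is the mean over its rows, and nuclear rows were averaged in 10000-bp windows. Limma 3.58.1 in R 4.3.3, tested on simulated data, was fitted to the ratios (4 groups) and to log2(reads + 0.5) relative to the nuclear median (6 groups), 2 a group, without covariates. P-values were adjusted by Benjamini-Hochberg over 1232 features with a threshold of 0.05. All 9 genes are named in every sample. Alternatives changed the centring, row summary, low-row filter (200 reads), pseudocount (1 read), prior, features, threshold, libraries and pairing. Replicate numbers were checked as pairs by correlating deviations from group means. Between eco1 and wt at 40 min this gave -0.695 over all features and -0.147 over nuclear ones, so the numbers were not taken to pair the strains. Within a strain, 20 and 40 min gave 0.181 in eco1 and 0.523 in wt over nuclear features. Replicates of a group did not agree within counting noise (chi-square of 192 to 7920 on 85 degrees of freedom over mitochondrial rows), so none was taken as 1 library deposited again; this does not show that they came from separate cultures. The members and lists were chosen with earlier results of these data known.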

Additional observations from a re-analysis of the deposited data

Results flagged for a closer look

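At 20 min the centred ratios of 6 genes lay on opposite sides of 0 in the strains. Both eco1 columns were below 0 and both wt columns above it. Of 1213 nuclear windows 20.6% had the strains on opposite sides of 0 in all 4 columns, in either direction. For COX1 and COX2 the eco1 values lay near 0. In relative depth over the 0-min library, eco1 at 20 min had 1.04 and 1.08 for COX1 and 1.02 and 1 for COX2. The difference, eco1 minus wt on the centred log2 ratio scale, was -0.805 for VAR1, -0.718 for the 15S rRNA gene, -0.557 for ATP6, -0.354 for COB, -0.267 for COX1 and -0.245 for COX2. By the limma fit over all 8 columns none of the 6 passed (adjusted p = 0.353 to 0.71, the lowest for the 15S rRNA gene), and with the 20-min columns alone all 6 did (adjusted p = 9.06e-05 to 0.0175), as did 16% of all features. The range over all alternatives was 9.06e-05 to 0.62 for the 15S rRNA gene and 0.0175 to 0.896 for COX2.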

How the results depend on the processing

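Of 1155 recomputed values, namely all counts of genes called, the genome means and the gene values at 0 and 20 min, 1073 kept direction and side of the threshold, 78 passed the threshold where the reported fit did not, and 4 turned direction. Of 657 recomputed gene values at 40 min, 38 turned direction, 36 of them with 1 library left out: 8 genes in eco1 (the 15S rRNA gene from -1.066 to 0.359), 4 in wt, 6 between strains and all 9 in levels. With all groups 0 of 9 genes were called in each comparison, also with a replicate block (0 called); a replicate block within strain, run for the changes from 20 to 40 min and their difference between strains, gave 0 called as well. With the 2 groups of the contrast alone, limma called 8 genes at 20 min between strains. Relative to the rows between genes, it called 6 at 20 min. In levels, where the fits of 2 groups were chosen after seeing the data, it called 5 at 0 min and 4 at 20 min. Fitted to the 20- and 40-min columns of 1 strain, limma called 0 genes against 0 min in eco1 and 0 in wt, at 20 min and at 40 min. Without the 40-min libraries, chosen after seeing the data, it called 4 in eco1 at 20 min, 7 in wt at 20 min, 8 between strains at 20 min, 8 in levels at 0 min and 6 in levels at 20 min. These fits drop the libraries whose replicates differ most. Leaving out either eco1 40-min library gave 1 call in eco1 at 20 min, where the fit with all columns called 11.6% of all features. The same step gave 1 call between strains at 20 min, against 12.5% of all features, and 1 in levels at 20 min, against 21.3%. Relative to the rows between genes it gave 6 calls at 20 min, against 14.7%. At 40 min too, calls came only from leaving out an eco1 40-min library, and those fits rest on a single eco1 library at 40 min. Leaving out any other library gave 0 calls. OLI1 in eco1 at 20 min was -0.011 without centring and -0.027 to 0.036 with 1 library left out, COX2 in eco1 at 20 min was 0 when rows were weighted by their bases in the gene, and the level of the 15S rRNA gene at 20 min was -0.045 to 0.109 with 1 library left out; the cause was not tested. With 2 libraries a group, a single library can decide a call.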

Other observations

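ATP8, which encodes a further subunit of ATP synthase and is not among the 9 genes, lies at chrM:27666-27812 in the row between COX1 and ATP6. That row had relative depths of 0.722 and 1.24 at 0 min, 0.565 and 0.688 at 20 min and 1.17 and 0.302 at 40 min in eco1, against 0.46 and 0.354, 0.473 and 0.407, and 0.426 and 0.919 in wt. Its centred ratios were -0.351 and -0.844 in eco1 and 0.042 and 0.188 in wt at 20 min. RPM1, the RNA of mitochondrial RNase P, shares its row with a tRNA gene and had centred ratios of -0.257 and -0.471 in eco1 and 0.258 and 0.218 in wt at 20 min. The 24 mitochondrial tRNA genes had their centres in 16 rows, 15 of them between genes. These 15 rows averaged -0.312 and -0.56 in eco1 and 0.364 and 0.268 in wt at 20 min, and the other 31 rows between genes averaged -0.41 and -0.658 in eco1 and 0.396 and 0.222 in wt. The row at the centre of SCEI, the homing endonuclease frame in the intron of the 21S rRNA gene, had 0.071 and 0.07 in eco1 and 0.104 and 0.287 in wt at 20 min.

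Nuclear genes that act on mitochondrial DNA were looked up as a list of 23, which lay in 22 windows. Between strains at 20 min limma called 2 of the 22 windows higher in eco1 and 0 lower, against 5.19% of all features, with a median difference of 0.04, beside -0.016 over all features. Both are named because of their values: the windows of NTG1 on chromosome I (0.555 ± 0.0355, adjusted p = 0.000225) and of RNR3 on chromosome IX (0.219 ± 0.0396, adjusted p = 0.0283). At 20 min chromosome I averaged 0.558 and 0.531 in eco1 and 0.041 and 0.052 in wt, and chromosome IX 0.19 and 0.186 in eco1 and 0.018 and 0.009 in wt. The window of MIP1, the mitochondrial DNA polymerase, had an eco1 minus wt difference of -0.07 ± 0.0355 (SE; adjusted p = 0.299). That of ABF2, which packages mitochondrial DNA, had -0.169 ± 0.0619 (adjusted p = 0.178), and that of RPO41, the mitochondrial RNA polymerase, had 0.055 ± 0.0304 (adjusted p = 0.341). The nuclear chromosome nearest to the mitochondrial mean over the 8 columns was XV, at a Euclidean distance of 1.58, with -0.077 and -0.074 in eco1 and 0 and 0.004 in wt at 20 min, where the mitochondrial rows had -0.241 and -0.377 in eco1 and 0.331 and 0.229 in wt.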
